A study of Mus musculus with 6 samples.

Results

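The AP-2 family comprises Tfap2a, Tfap2b, Tfap2c, Tfap2d and Tfap2e, and was followed here in EGFP-positive cells of mouse embryos at E11.5, which had been sorted from dissected intermediate mesoderm. Every probe set that the platform table assigned to exactly 1 of these 5 symbols was taken, which gave 10 of the 45037 probe sets that are not array controls, and 5 of 18193 genes. The family was chosen by symbol after a comparison of the same 6 arrays had been seen. Its differences between genotypes are therefore given as a description, without p-values and not as a test. Counts of members that passed a fit over all genes are given too, and nothing is read from them. The study compared 3 samples labelled Pax2 heterozygote, with the EGFP/+ genotype in their titles, and 3 labelled Pax2 null, with EGFP/EGFP, so that all 6 samples carried at least 1 EGFP allele and none was wild type. The sources used here do not say how many embryos made up a sample, or whether samples came from separate litters, so errors and p-values cover the spread between these 6 samples and no more, and some of it may be technical. RNA was amplified from 10 ng of total RNA and hybridized to 1 array per sample.

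AP-2 proteins are transcription factors that bind GC-rich palindromic DNA as dimers, through a helix-span-helix dimerization region next to a basic region. They are best known from surface ectoderm, neural crest and their derivatives. In the kidney, Tfap2b and Tfap2a are known from the nephric duct and the distal nephron, and mice without Tfap2b die of kidney failure. Their activity is tuned by CITED co-activators, which recruit p300 and CBP, and by KCTD proteins, which repress it.

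The palindrome that AP-2 dimers bind was looked for in the promoters of the family itself, and the promoters of Tfap2a and Tfap2b are shown because both had higher values in null cells. RefSeq promoters (build GRCm38.p6, 250 bases before to 50 after each start) matched 4 of the 5 genes, with 7 start sites: 2 for Tfap2a, 1 for Tfap2b, 3 for Tfap2d (windows of which partly overlap) and 1 for Tfap2e. The bases upstream of the Tfap2a and Tfap2b start sites read as follows, 5′ to 3′ on the strand of the gene, in lower case with the 1 match to a GCC and a GGC that are 4 bases apart in capitals. They lie at chr13:40734921-40735170 and chr13:40733796-40734045 on the minus strand for Tfap2a, and at chr1:19211804-19212053 on the plus strand for Tfap2b.
Tfap2a, start 1: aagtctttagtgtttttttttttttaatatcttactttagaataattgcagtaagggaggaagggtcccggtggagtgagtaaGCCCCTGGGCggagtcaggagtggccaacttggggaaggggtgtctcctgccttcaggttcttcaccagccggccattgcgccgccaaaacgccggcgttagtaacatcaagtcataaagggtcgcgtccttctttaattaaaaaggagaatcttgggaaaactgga
Tfap2a, start 2: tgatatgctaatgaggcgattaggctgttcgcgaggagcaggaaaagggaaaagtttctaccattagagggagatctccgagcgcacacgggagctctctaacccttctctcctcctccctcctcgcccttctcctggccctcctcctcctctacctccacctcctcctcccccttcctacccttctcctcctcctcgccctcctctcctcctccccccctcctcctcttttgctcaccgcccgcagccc
Tfap2b: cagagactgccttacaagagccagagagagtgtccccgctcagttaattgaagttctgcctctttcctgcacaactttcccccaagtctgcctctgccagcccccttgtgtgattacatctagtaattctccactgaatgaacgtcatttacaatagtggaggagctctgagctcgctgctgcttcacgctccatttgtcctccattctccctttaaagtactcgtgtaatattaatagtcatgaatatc

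The palindrome with a 3-base spacer, GCCNNNGGC, which reads the same on both strands, was present in 0 of the 7 family promoters. It was present in 22.1% of the 18109 promoters of genes on the array and in 16.6% of all 32851 promoters of the same length. The form with a 4-base spacer occurred in 1 family promoter, the first of Tfap2a, beginning 167 bases before the start site, against 20.4% of promoters of genes on the array. The form with a 2-base spacer, GCCNNGGC, occurred in 0 of the 7, against 23.9%. The median GC content was 48.3% in the family's promoters and 58.3% in those of genes on the array. A match is a match of letters only, and its absence from this window says nothing about binding elsewhere.

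Tfap2a, the founding member and a regulator of neural crest and ectoderm, was higher in null cells. On the probe set with the highest mean, 1426048_s_at, the log2 values were 9.51, 9.26 and 9.78 in heterozygotes 1, 2 and 3, and 10.05, 10.58 and 10.16 in nulls 1, 2 and 3. Every null array lay above every heterozygote array, with a gap of 0.27 between the groups. The means were 9.51 ± 0.26 and 10.26 ± 0.28 (log2, SD, n = 3 each), a difference of 0.75 ± 0.21 (SE from the fit over all genes) or 1.68-fold. The other 2 probe sets pointed the same way. The log2 values of 1421996_at were 8.10, 7.78 and 8.11 in heterozygotes and 8.32, 8.75 and 8.77 in nulls, again without overlap, with a difference of 0.62 ± 0.19 (SE). Those of 1421995_at were 8.22, 8.55 and 9.05 in heterozygotes and 9.32, 9.93 and 8.82 in nulls. Here null 3 fell between heterozygotes 2 and 3, the groups overlapped, and the same size of difference (0.75) had a larger error of 0.32 (SE).

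Tfap2b, which is needed for distal tubule development, had the largest difference of the family. The log2 values of 1435670_at were 7.76, 7.53 and 6.97 in heterozygotes 1 to 3, and 8.53, 8.41 and 8.90 in nulls 1 to 3. The lowest null array exceeded the highest heterozygote by 0.65. The means were 7.42 ± 0.40 and 8.61 ± 0.26 (log2, SD, n = 3 each), a difference of 1.19 ± 0.24 (SE) or 2.29-fold. The second probe set, 1423340_at, read 7.53, 7.62 and 7.06 in heterozygotes and 8.60, 8.95 and 8.19 in nulls, with a difference of 1.18 ± 0.24 (SE) and a gap of 0.58. Both probe sets thus separated the genotypes in the same direction and by nearly the same amount, although the null arrays did not keep the same order on them: null 3 was the highest on the first and the lowest on the second.

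Tfap2c, known from trophoblast and primordial germ cells, was the one member with lower values in null cells. On its brightest probe set, 1436392_s_at, heterozygotes read 8.24, 8.03 and 7.07 and nulls 6.47, 7.03 and 7.02 (log2). The groups did not overlap, but heterozygote 3 lay only 0.05 above the highest null array, whereas heterozygotes 1 and 2 lay well above it. The means were 7.78 ± 0.62 and 6.84 ± 0.32 (log2, SD, n = 3 each), a difference of -0.94 ± 0.32 (SE) or 1.92-fold lower. The other probe sets had smaller differences of the same sign. On 1418147_at the heterozygote values were 6.35, 5.11 and 4.82 and the null values 4.95, 5.22 and 5.34, so that heterozygote 1 alone stood above the nulls, and the difference was -0.26 ± 0.38 (SE). On 1448977_at they were 4.98, 4.82 and 4.22 against 4.07, 4.62 and 4.35, with overlap and a difference of -0.33 ± 0.25 (SE). With the mean over the 3 probe sets, the Tfap2c difference was -0.51. It was -0.71 without heterozygote 1 and -1.30 without heterozygote 3.

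Tfap2d and Tfap2e, best known from the nervous system and the olfactory bulb, each had 1 probe set, and both lay below the 33rd percentile of all probe sets (4.81 on the log2 scale), under which differences are compressed. Tfap2d read 3.86, 3.88 and 3.70 in heterozygotes and 3.75, 4.12 and 3.62 in nulls. Tfap2e read 3.68, 3.81 and 3.91 in heterozygotes and 4.24, 3.82 and 3.72 in nulls. The groups overlapped for both genes, with differences of 0.02 ± 0.18 and 0.13 ± 0.18 (SE). These values give no evidence on whether either gene is expressed. Levels of different probe sets are not comparable, so the 5 genes were not ranked by level.

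**Figure D1:**
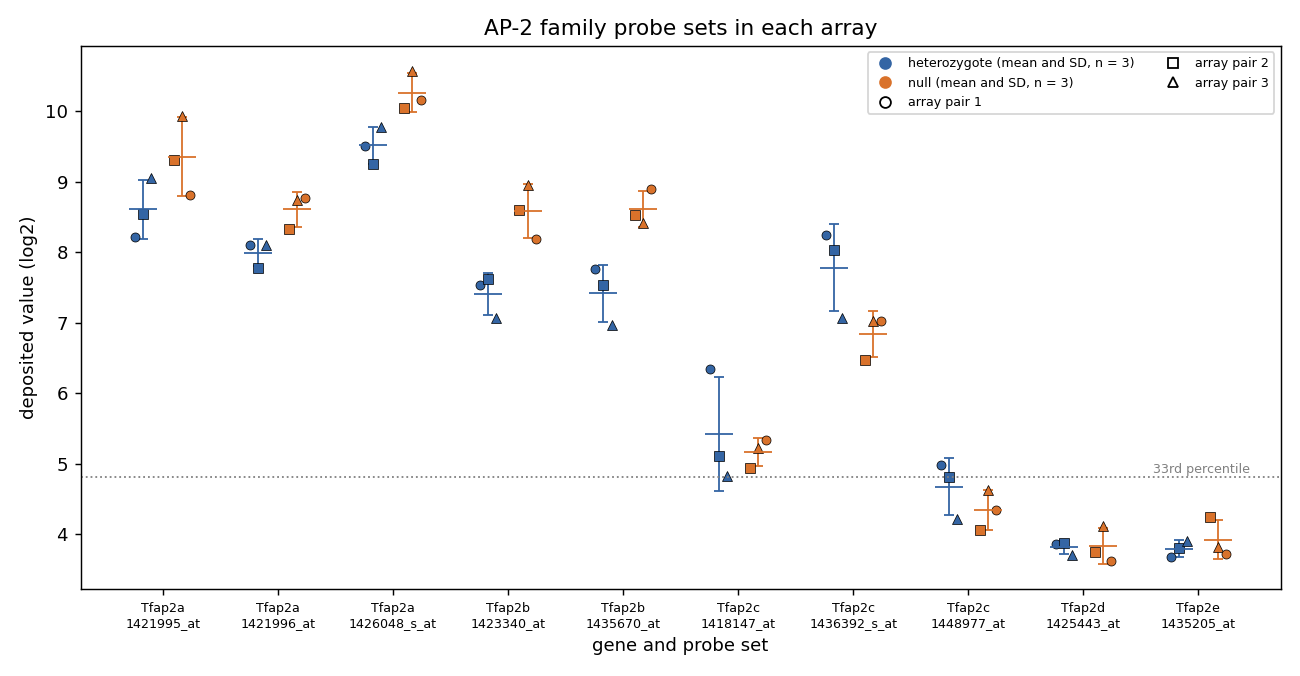
Deposited log2 values (vertical axis) of the 10 AP-2 probe sets (horizontal axis) in 3 heterozygote arrays (blue) and 3 null arrays (orange), with the mean and SD of each group, symbols for the array pair and a dotted line at the 33rd percentile of all probe sets. The null arrays sit above the heterozygotes on both Tfap2b probe sets and on 2 of 3 Tfap2a probe sets, below them on 1 of 3 Tfap2c probe sets, and Tfap2d and Tfap2e stay under the dotted line.

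Counted over the family, 4 of 10 probe sets had null arrays entirely above the heterozygotes and 1 had them entirely below, where 5.56% and 6.13% of all probe sets did. By gene, 2 of 5 members lay entirely above and 1 entirely below, against 6.49% and 7.16% of all genes. In the fit over 18193 genes (limma, Benjamini-Hochberg adjusted p under 0.05), 0 of 5 members passed, where 1.39% of genes did. At an unadjusted p under 0.05 in limma, 3 of 5 members passed, where 9.73% of genes did. As the family was chosen with this contrast known, nothing is read from these shares. By size of difference, Tfap2b ranked 404th, Tfap2c 690th and Tfap2a 1038th among all genes.

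The labels name no batch, but the 14 probe sets for bacterial hybridization controls matched the arrays into 3 pairs of 1 array per genotype, without use of the genotype. Heterozygote 1 was matched with null 3 (pair 1), heterozygote 2 with null 1 (pair 2), and heterozygote 3 with null 2 (pair 3). Within these pairs, Tfap2a was higher in null by 0.65, 0.79 and 0.80 (log2, 1426048_s_at). Tfap2b was higher by 1.15, 1.0 and 1.44 (1435670_at). All 9 differences over the Tfap2a probe sets and all 6 over the Tfap2b probe sets were positive. On 4 of these probe sets the groups did not overlap, so any pairing gives positive differences there. Only the signs on 1421995_at of Tfap2a could have come out otherwise, and the tally is no separate support. Tfap2c differed by -1.22 and -1.56 in pairs 1 and 2 but by -0.05 in pair 3 (1436392_s_at), and on its other 2 probe sets pair 3 had the opposite sign, 0.40 on each. When limma's model held the pair as a block, 4.56% of all genes had an adjusted p under 0.05 and 2.67% had it as higher. For the family this count was 2 of 5, both higher, but it comes from the contrast with which the family was chosen, so that it is no test of the members and nothing is read from it.

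**Figure D2:**
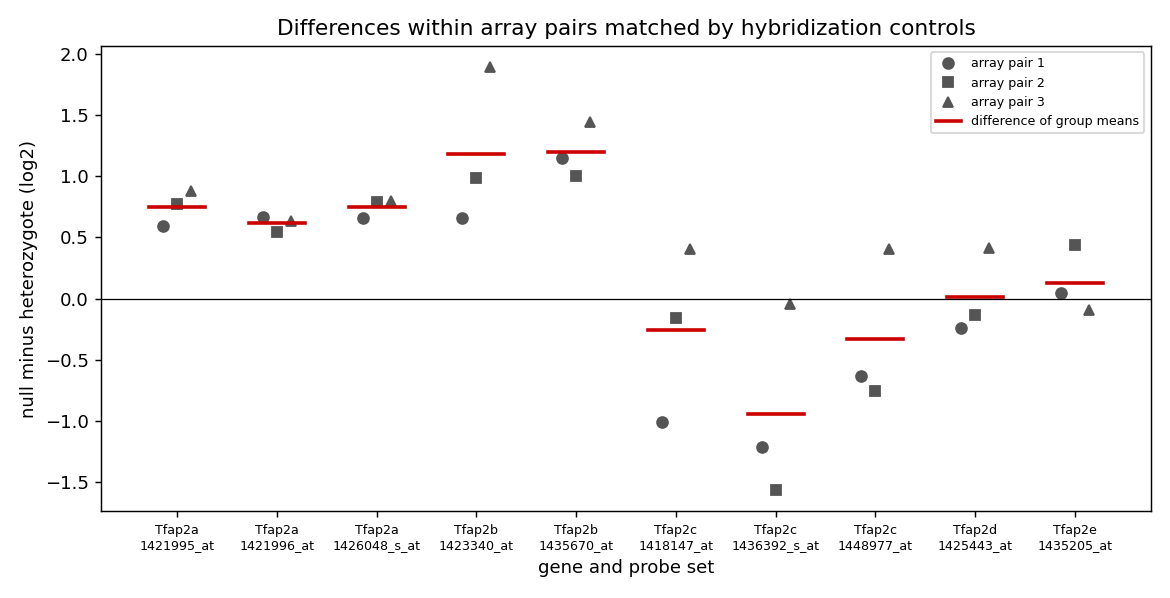
Null minus heterozygote (log2, vertical axis) within each of the 3 array pairs for the 10 AP-2 probe sets (horizontal axis), with the difference of group means as a red line. Tfap2a and Tfap2b lie above 0 in all pairs, with Tfap2a between 0.55 and 0.88, whereas the 3 Tfap2c probe sets spread from -1.56 to 0.40 with pair 3 the highest on each.

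Probe sets of 1 gene followed each other over the 6 arrays, with Pearson r between 0.61 and 0.93 for Tfap2a, 0.83 for Tfap2b and between 0.67 and 0.92 for Tfap2c. These correlations include the difference between genotypes. Between probe sets of Tfap2a and probe sets of Tfap2b, r ran from 0.34 to 0.79, which overlaps the range within a gene. The values within a gene are therefore not shown to be particular to that gene. Among genes with a mean at or above the 33rd percentile, the 4 whose values were most like those of Tfap2a over the 6 arrays were Mib2 (r = 0.997), Fam181b (0.994), Ccl6 (0.992) and Kcnd3 (0.990). For Tfap2b they were Lrfn5 (r = 0.996), Plekha2, St8sia4 and Tnnt1 (0.990 each). For Tfap2c they were Lactb (r = 0.996), Adarb1 (0.987), Akr1c19 (0.986) and Qtrt1 (0.985). They are the highest among all genes compared, over only 6 arrays that fall into the groups compared, and are given as a description.

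Of the partners that set AP-2 activity, 1 rose in null cells. Cited1, a co-activator of AP-2 proteins, read 9.24, 9.89 and 9.78 in heterozygotes and 11.43, 12.01 and 10.74 in nulls (log2), without overlap. It rose by 1.76 ± 0.33 (SE; limma, adjusted p = 0.0491), a call that was lost without any single array except null 3 (limma, adjusted p up to 0.149). With all 6 arrays kept, the Cited1 call was also lost with a robust variance prior and after renewed quantile normalization. Of 14 measured partners 1 rose, 0 fell and 13 did not pass, where 0.808% of all genes rose and 0.583% fell. The median difference was -0.11, against -0.02 over all genes.

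Cited2, the paralogue that AP-2 proteins need in neural tube and heart development, had the opposite sign. It read 11.59, 11.41 and 11.63 in heterozygotes and 10.76, 10.80 and 11.13 in nulls, with a difference of -0.65 ± 0.17 (SE; limma, adjusted p = 0.147). Myc, whose protein binds AP-2, differed by -0.94 ± 0.24 (SE; limma, adjusted p = 0.139). Both Cited2 and Myc passed as lower in the model with the pair block. The chromatin protein gene Dek differed by -0.46 ± 0.18 and did not pass with or without the block. The repressors of AP-2 activity stayed near 0, with 0.14 ± 0.19 for Kctd1 and 0.23 ± 0.15 for Kctd15 (SE), and so did the acetyltransferase genes Ep300 (0.00 ± 0.23) and Crebbp (0.09 ± 0.16).

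Genes reported elsewhere as AP-2 targets did not move one way. Of 23 measured, Krt5 rose, Ret fell and 21 did not pass, where 0.808% of all genes rose and 0.583% fell. The median difference was 0.02, against -0.02 over all genes. Krt5, a keratin of basal epithelia, read 4.88, 5.11 and 5.37 in heterozygotes and 6.76, 6.69 and 7.26 in nulls, a rise of 1.78 ± 0.21 (SE; limma, adjusted p = 0.0103) that kept its call whichever of the 6 arrays was omitted. Ret, the receptor tyrosine kinase of the ureteric bud, read 9.91, 10.27 and 10.26 in heterozygotes and 6.46, 8.0 and 5.86 in nulls. It fell by 3.37 ± 0.48 (SE; limma, adjusted p = 0.0189), a call lost without heterozygote 2, heterozygote 3 or null 1 (adjusted p up to 0.0844).

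Esr1, the oestrogen receptor gene, differed by 0.97 ± 0.24 (SE; limma, adjusted p = 0.136) and Mmp2, a matrix protease gene, by 0.79 ± 0.22 (SE; limma, adjusted p = 0.180). The heterozygote mean of Esr1, 3.86, lay below the 33rd percentile, so its difference is not an exact size. Mmp2 and Apoe passed as higher with the pair block. Kit, Erbb2, Krt18, Igfbp5 and Cdkn1a, all reported targets, had differences between -0.05 and 0.23 that did not pass. The AP-2 palindrome with a 3-base spacer was present in 9 of 24 promoters of this list (37.5%), against 22.1% of promoters of genes on the array, and Krt5 had it in 0 of 1. With either other spacer the share of this list was 20.8%. Among the partners the 3-base form was present in 4 of 13 promoters (30.8%), with 1 of the 3 start sites of Cited1, and the 2-base form in 7 of 13 (53.8%), against 23.9% on the array. Lists chosen for cell types had 3-base shares on both sides of that of the array. They ran from 9.09% for stromal genes to 33.3% for endothelial, 42.9% for germ cell and 61.1% for distal nephron genes.

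Distal nephron genes, the segment that Tfap2b is known to serve, were described next. The list is named after that segment, and whether its cells were in these E11.5 samples was not tested. Of 18 measured members, 4 fell, 0 rose and 14 did not pass, where 0.583% of all genes fell and 0.808% rose. The median difference was -0.19, against -0.02 over all genes. Without the genes whose mean lay below the 33rd percentile, the median over the other 13 genes of this list was -0.57. Calb1 was kept among these 13 only through its heterozygote values, so this median depends partly on how the filter works. Calb1, a calcium-binding protein gene shared with the duct list, read 10.81, 10.28 and 10.37 in heterozygotes and 3.39, 4.36 and 5.80 in nulls. It fell (limma, adjusted p = 0.00364), but the null mean of 4.52 lay below the 33rd percentile, where differences are compressed, so the fitted difference of -5.97 is not an exact size. Kcnj16, a potassium channel gene, read 8.59, 8.56 and 8.37 in heterozygotes and 6.27, 6.08 and 5.36 in nulls, and fell by 2.60 ± 0.24 (SE; limma, adjusted p = 0.00389).

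The Iroquois genes Irx1 and Irx3, which pattern intermediate nephron segments, fell too, with differences of -1.47 ± 0.17 and -1.42 ± 0.24 (SE; limma, adjusted p = 0.00858 and 0.0342). The first 3 calls held in all 6 fits with 1 array left out, whereas that of Irx3 held only without null 1 (adjusted p up to 0.109). Kctd1, the AP-2 repressor of the distal tubule, did not pass, as given above. The transporter genes of the mature segments, Slc12a1, Slc12a3 and Umod, lay below the 33rd percentile, with means between 2.97 and 3.37 (log2). The AP-2 palindrome was present in 11 of 18 promoters of this list, or 61.1%, against 22.1% of promoters of genes on the array, with a median GC content of 57.2% against 58.3%. With a 4-base or a 2-base spacer the share of this list was 5.56% or 22.2%, against 20.4% and 23.9% of promoters of genes on the array. The 18 promoters belong to 14 genes, 10 of which had the 3-base form, so some share a gene.

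**Figure D3:**
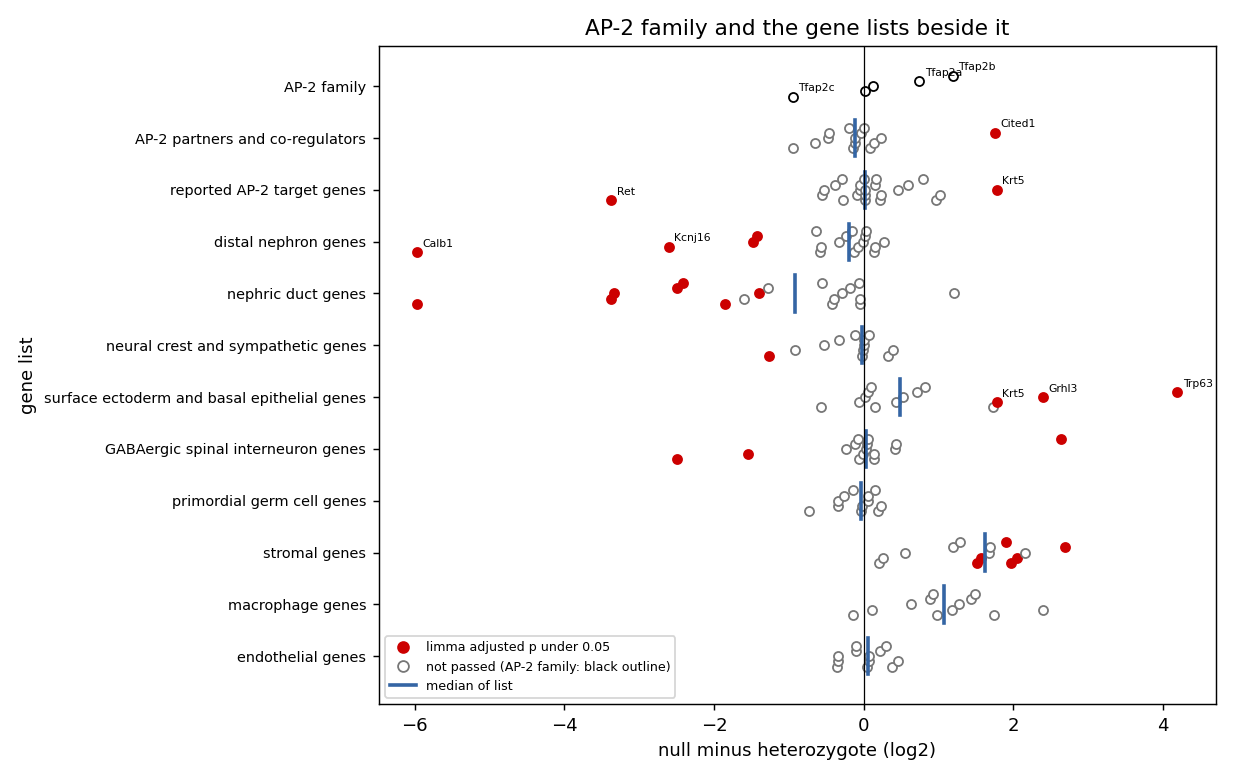
Null minus heterozygote (log2, horizontal axis) for the 5 AP-2 genes and the genes of 11 lists (vertical axis), with filled red points for list genes with a limma adjusted p under 0.05 and a blue bar at each list's median. Tfap2a and Tfap2b lie to the right of 0 and Tfap2c to the left. The medians are 1.62 for stromal and -0.92 for nephric duct genes, and the partner and target medians lie at -0.11 and 0.02.

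Since AP-2 genes mark several cell types, markers of those types were read beside them. In bulk samples, fewer cells of a type and less RNA per cell cannot be told apart. Surface ectoderm and basal epithelium express AP-2 genes. Of 14 measured genes of this list 3 rose, 0 fell and 12 had a positive difference, with a median of 0.48. Over all genes, 0.808% rose, 0.583% fell and 46.4% had a positive difference. These shares are the background for each cell type list below as well. The mean log2 level of the list lay between 6.29 and 6.47 in heterozygote arrays and between 7.01 and 7.40 in null arrays.

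Trp63, the master regulator of stratified epithelium, rose by 4.20 ± 0.17 (SE; limma, adjusted p = 0.000134). Grhl3, a factor of surface ectoderm, read 4.26, 3.38 and 3.23 in heterozygotes and 5.16, 6.35 and 6.56 in nulls, and rose (limma, adjusted p = 0.0342). Its heterozygote mean of 3.62 lay below the 33rd percentile, so the fitted difference of 2.40 is not an exact size. The Grhl3 call held only when heterozygote 1 or null 1 was omitted (adjusted p up to 0.135 otherwise). Krt5 was the third. Perp, a gene of epithelial junctions, read 6.92, 6.29 and 5.75 in heterozygotes and 7.52, 8.16 and 8.46 in nulls, without overlap. Its difference of 1.73 ± 0.34 (SE; limma, adjusted p = 0.0621) passed with the pair block (adjusted p = 0.0210), which made 4 calls in this list. Krt15, a basal keratin gene, differed by 0.81 ± 0.21 (SE) without overlap and did not pass with or without the block (limma, adjusted p = 0.152 and 0.0599). Values of other members were closer: Krt14 had means of 4.33 and 4.49 and Dsc3 of 4.18 and 4.25 (log2), all below the 33rd percentile, and Grhl2 and Cdh3 differed by -0.06 ± 0.28 and 0.10 ± 0.28 (SE).

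Neural crest and sympathetic genes had a median difference of -0.02. Of 12 measured, Phox2a fell (limma, adjusted p = 0.0351, up to 0.130 with 1 array left out), 0 rose and 11 did not pass. Its means were 5.94 and 4.68, the second below the 33rd percentile. The call for Phox2a held only without null 2 among those fits. Sox10, the defining gene of migrating crest, had means of 5.95 in heterozygotes and 6.01 in nulls. The mean level of the list lay between 6.85 and 6.91 in heterozygotes and between 6.53 and 6.92 in nulls.

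GABAergic spinal interneurons express Tfap2a and Tfap2b downstream of Ptf1a. Ptf1a, Gad1 and Gad2 all lay below the 33rd percentile in both genotypes, with means between 3.35 and 4.16 (log2). By their mean over all 6 arrays, 7 of the 15 measured list genes lay above it. Slc32a1 was among them, with means of 6.84 in heterozygotes and 6.88 in nulls. Of 15 measured genes of this list 1 rose, 2 fell and 12 did not pass, with a median of 0.04. Stmn2, a general neuronal gene, rose by 2.64 ± 0.47, while Elavl4, an RNA-binding protein gene of neurons, fell by 1.54 ± 0.29 and Lhx1, which the duct also expresses, fell by 2.50 ± 0.22 (SE; limma, adjusted p = 0.0390, 0.0493 and 0.00353). The call for Stmn2 was lost without any of the null arrays (adjusted p up to 0.141), and that for Elavl4 without any array except heterozygote 1 (up to 0.180).

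Primordial germ cells express Tfap2c, and at this age they lie in the neighbouring gonadal ridge. Of 12 measured germ cell genes 0 rose and 0 fell in limma, also 0 passed at an unadjusted p under 0.05, and the median difference was -0.03. Pou5f1, Dazl, Ddx4 and Nanog lay below the 33rd percentile, with means between 2.98 and 4.35 (log2). By their mean over all 6 arrays, 5 of the 12 lay above it, from Dnd1 at 5.04 to Alpl at 7.70, with Kit, Utf1 and Prdm1 between them. Prdm1 differed by -0.73 ± 0.35 (SE; limma, adjusted p = 0.580, and lower with the pair block). The mean level of the list lay between 4.69 and 4.99 in heterozygotes and between 4.57 and 4.79 in nulls.

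In the duct list, 18 of 18 measured genes had a mean over all 6 arrays above the 33rd percentile. Most probe sets lie above that limit by its definition, so this does not identify the cell type. Of the other lists, 14 of 14 stromal, 10 of 12 macrophage and 7 of 12 endothelial genes lay above it too. Among the duct genes, Calb1 and Elf5 did so through the heterozygotes, with null means of 4.52 and 3.71 below it. In that list 7 fell, 0 rose and the median was -0.92, with Sim1, Mal, Gata3 and Elf5 among the 7 beside Calb1, Ret and Lhx1. The count that fell was 4 without heterozygote 3 or null 1, and with the pair block 9 fell and 1, Krt19, rose. Sim1, Mal, Calb1 and Lhx1 kept their calls in all 6 fits with 1 array left out, whereas Gata3 kept it in 2 (adjusted p up to 0.0933), and Elf5 (up to 0.143) and Ret in 3 each. Epcam, Krt8 and Krt18 had differences between -0.06 and -0.05. Its mean level lay between 9.15 and 9.49 in heterozygotes and between 7.70 and 8.14 in nulls. In the stromal list 6 of 14 rose (Pdgfrb, Tbx18, Postn, Col1a2, Lum and Dcn), 0 fell and the median was 1.62, with mean levels of 7.97 to 8.64 and 9.70 to 9.94. The count that rose was 10 without heterozygote 1, 4 without heterozygote 2, heterozygote 3 or null 1, 10 with array weights and 11 with the pair block. Among these genes Lum lost its call in 3 of the 6 fits with 1 array left out, Dcn in 2, and Pdgfrb and Col1a2 in 1 each (limma, adjusted p up to 0.0843). The heterozygote mean of Lum, 4.65, lay below the 33rd percentile. In the macrophage list 0 of 12 passed limma (7 at an unadjusted p under 0.05, 4 as higher with the pair block) and the median was 1.08, with mean levels of 5.39 to 6.32 and 6.39 to 7.52. In the endothelial list 0 of 12 passed limma (0 at an unadjusted p under 0.05) and the median was 0.06. The part of these cell types in the AP-2 values was not tested.

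Of the protein-coding genes next to the 5 members in the RefSeq order (GRCm38.p6), Tfap2d and Tfap2b neighbour each other, with differences of 0.02 and 1.19. Of 7 other neighbours with a value, chosen by position only, 1 passed, where 1.39% of all genes did. This was Bmp7. It lies next to Tfap2c and encodes a growth factor that maintains nephron progenitors. Bmp7 read 9.60, 9.65 and 9.68 in heterozygotes and 7.88, 8.40 and 8.73 in nulls, and fell by 1.31 ± 0.22 (SE; limma, adjusted p = 0.0341), a call that was lost without any single array except null 3 (up to 0.135). Pkhd1, the polycystic kidney gene next to Tfap2b, differed by -0.78 ± 0.41 (SE; limma, adjusted p = 0.670), opposite in sign to Tfap2b.

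**Figure D4:**
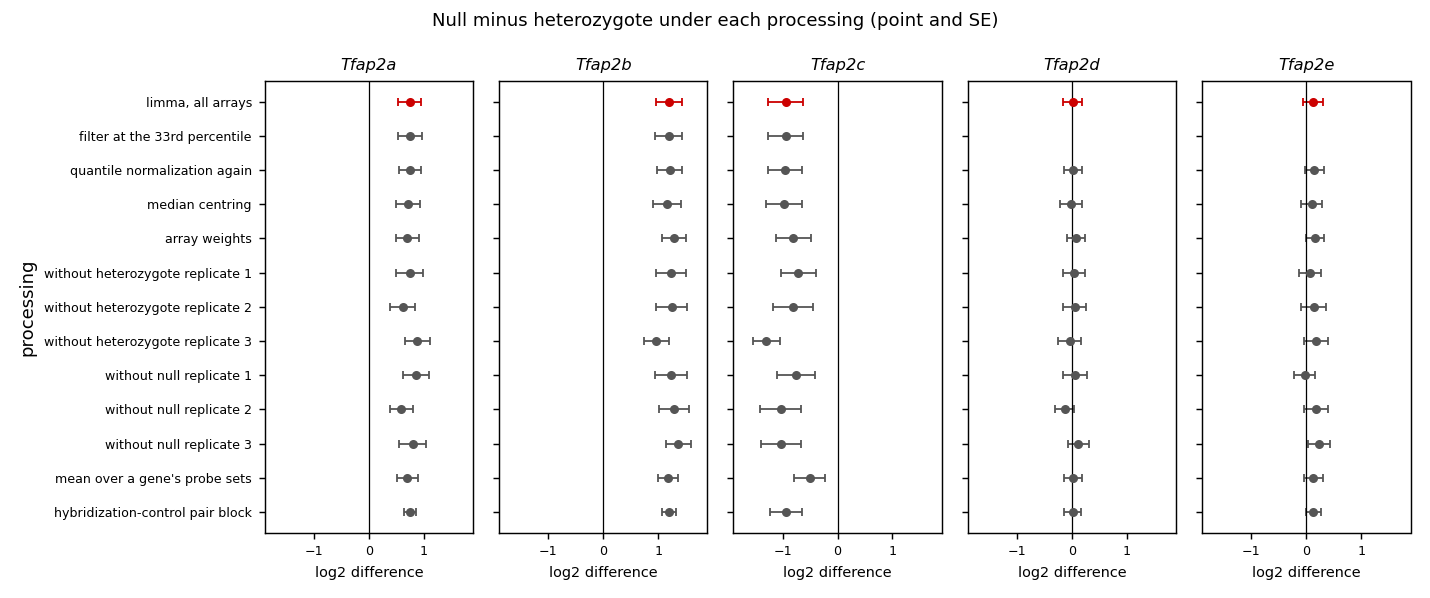
Null minus heterozygote (log2, horizontal axis; point and SE) of the 5 AP-2 genes under each processing (vertical axis), with all arrays in red. Tfap2a stays between 0.59 and 0.88, Tfap2b between 0.97 and 1.37 and Tfap2c between -1.30 and -0.51, while Tfap2d and Tfap2e lie on either side of 0 and have no value after the filter on dim probe sets.

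Under the 10 alternatives that moved the estimate, Tfap2a and Tfap2b kept a positive and Tfap2c a negative difference in each. The groups did not overlap on the brightest probe sets of Tfap2a and Tfap2c or on either of Tfap2b. Omission of 1 array therefore cannot change these signs, and the fits with an omitted array are no support for them. The pair block and the filter on dim probe sets leave the estimate as it was by construction and are not counted. Tfap2d kept its sign in 6 of 9 and Tfap2e in 8 of 9, as the mean over probe sets is not counted either for genes with 1 probe set.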

How the data were processed

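The authors deposited log2 probe-set values for 6 arrays; the submitters' processing notes name RMA, affy and limma but no version or setting. RMA equalizes the distribution of values between arrays, which hides differences in total RNA. Array medians lay between 6.12 and 6.24, and arrays of 1 genotype correlated at 0.976 to 0.991. Of 45101 probe sets, 64 controls were left out. The platform table gave exactly 1 symbol to 34945 of the rest, of which 34741 matched RefSeq (GRCm38.p6). A gene was read from its probe set with the highest mean (18193 genes). Null was compared with heterozygote in limma 3.58.1 (R 4.3.3, lmFit and eBayes, no covariates, two-sided, Benjamini-Hochberg, threshold 0.05). The fit was tested on simulated data with independent noise, which lack the array pairs described here and so do not cover them. Precision is limited by the 3 arrays per group.

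The family, the lists, the tests and the pair block were chosen with earlier results of these data known. Named genes were the members, list genes that passed, the 4 partners and 4 targets with the smallest p, and the 4 genes most like each member above the 33rd percentile. Other genes are named as examples chosen after their values were seen, and neighbours by position. The pairs rest on control probe sets (summed distance 1.94, next best of 15 matchings 5.05), and after removal of genotype means paired arrays correlated at 0.377 or more, other opposite-genotype arrays at 0.0972 or less. Deviations then cancel within each genotype, so positive correlations within pairs pull the others down. The low values of the others are therefore no separate support for the pairs. Alternatives were other priors, a filter on dim probe sets, renewed normalization, array weights, omission of each array, other units and thresholds, and the block. The labels were not checked against the targeted gene, which is not analysed here. No protein sequences were used here.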

Additional observations from a re-analysis of the deposited data

How the results depend on the processing

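Over 18193 genes 253 passed, and this count was 553 with array weights, 830 with the hybridization-control pair as a block, 51 at a threshold of 0.01, 405 at a threshold of 0.10 and between 88 and 329 with 1 array left out. Of the 5 members 0 passed, against 1 with array weights, 1 when probe sets of a gene were averaged, 1 at a threshold of 0.10 and 2 with the pair block, and these counts support nothing, since the family was chosen with this contrast known. Of 153 listed genes 23 passed, against 41 with the pair block and between 13 and 28 with 1 array left out. The cause of these shifts was not tested. The differences of the 5 members moved by less than the spread between replicates under every alternative run, including each omitted array, although the filter on dim probe sets and the pair block leave the estimate as it was by construction. The median of the distal nephron list was -0.19 over 18 genes and -0.57 after that filter, which drops its dim genes but keeps Calb1 through the heterozygotes. The member differences ranged from 0.59 to 0.88 for Tfap2a, 0.97 to 1.37 for Tfap2b, -1.30 to -0.51 for Tfap2c, -0.13 to 0.12 for Tfap2d and -0.03 to 0.23 for Tfap2e. The count of family promoters with the palindrome was 0, and 1 with the 4-base spacer. The labels give the groups no shared replicate numbers, so the pair block rests on control probe sets only. Signal limits Tfap2d and Tfap2e, which lie under the 33rd percentile, as does the Tfap2c probe set 1448977_at.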
